A study of Mus musculus with 6 samples.

Results

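Cathepsins are the main proteases of the lysosome, and the mRNA of 9 of them was followed in mouse bone marrow-derived macrophages (BMMs), the precursors that RANKL turns into osteoclasts. The 9 genes, taken by symbol from the 24940 genes of the deposited expression table, were Ctsa, Ctsb, Ctsc, Ctsd, Ctsh, Ctsk, Ctsl, Ctss and Ctsz. Marrow cells of every group were first kept for 16 h in 5 ng/mL of M-CSF, and those that did not adhere were then grown for 3 days in 30 ng/mL of it. The cells fell into 3 groups with 2 RNA-seq libraries each. The RANKL + LEA group received 30 ng/mL of M-CSF with 100 ng/mL of RANKL plus 10 µg/mL of LEA, the RANKL group received the same M-CSF and RANKL, and the no RANKL group received that M-CSF alone. M-CSF is the growth factor that keeps macrophages and their precursors alive, and LEA is the ethyl acetate fraction of a water extract of the shiitake mushroom, a mixture whose active compound the labels do not name. The animals carried no transgene or deletion that the labels name. The labels give C57BL/6 mice whereas the methods give ICR males of 6 to 8 weeks. Neither states the harvest time for RNA-seq, a solvent control or whether the 2 libraries of a group came from separate cultures, so the p-values here reflect the spread of the sequenced samples alone, and part of it may be technical.

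Cathepsins are made as inactive proenzymes, tagged with mannose 6-phosphate in the Golgi, carried to acidic endosomes by sorting receptors and activated there by cleavage. Most members are cysteine proteases, whereas cathepsin D is an aspartic protease and cathepsin A a serine carboxypeptidase. Macrophages use them to degrade what they engulf and to cut antigens. Osteoclasts in addition release cathepsin K into the sealed space above bone, where it cleaves type I collagen. The comparisons ask of each member whether its mRNA differed between cells with RANKL and those without, and between cells with and without LEA.

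The 9 mRNAs did not move as a block. In RANKL cells compared with no RANKL cells, Ctsk was higher and Ctsb, Ctsh, Ctsc, Ctsd, Ctss and Ctsl were lower. In RANKL + LEA cells compared with RANKL cells, Ctsl was 2.86-fold higher, Ctsh and Ctss were moderately higher and Ctsk was lower. Of the differences between RANKL + LEA and RANKL cells, only that of Ctsl passed in every alternative run of the test. The listed differences between RANKL and no RANKL cells all did so. Ctsb was 1.49-fold higher in the same comparison and did not pass. Ctsa and Ctsz passed this test in no comparison. Values are FPKM, the fragments of a gene divided by its exon length and by the mapped reads of the library, a scale on which genes of different length can be compared. A gene was called when the limma test on log2(FPKM + 0.1) gave an adjusted p under 0.05 over all 11905 genes tested and at least 1.5-fold.

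The libraries were alike in depth, with 46380500 to 49593500 reads recovered from the steps of the low FPKM values. All 10 macrophage markers (Adgre1, Csf1r, Itgam, Cd68, Cd14, Mrc1, Marco, Msr1, Mertk and Lyz2) and all 9 osteoclast markers (Acp5, Ocstamp, Dcstamp, Atp6v0d2, Oscar, Calcr, Itgb3, Mmp9 and Car2) averaged at least 1 FPKM over the 6 libraries. The macrophage markers summed to 7446 and 5850 FPKM with RANKL + LEA, 4487 and 3794 FPKM with RANKL, and 10320 and 13930 FPKM without RANKL. Lyz2 made up most of these sums, with 6041 and 4497 FPKM, 3162 and 2539 FPKM, and 8083 and 11578 FPKM in the RANKL + LEA, RANKL and no RANKL groups. Not every marker followed the sum. Cd68 had 469 and 479 FPKM with RANKL + LEA, 616 and 583 FPKM with RANKL, and 515 and 568 FPKM without RANKL, and Csf1r had 325 and 322, 350.1 and 350.8, and 606 and 589 FPKM in the same groups. The osteoclast markers summed to 2611 and 2486 FPKM with RANKL + LEA, 5808 and 5009 FPKM with RANKL, and 28.1 and 29.7 FPKM without RANKL. Of the neutrophil markers only S100a8 reached a mean of 1 FPKM, Ly6g and Retnlg were at 0 in all libraries, and the 8 summed to 0.442 to 3.97 FPKM per library. No dendritic, B cell, T and NK cell, mast cell or erythroid marker reached a mean of 1 FPKM. Of the 6 stromal markers Col1a1, Col1a2 and Runx2 did, as did Kdr of the 3 endothelial ones, and neither list summed above 7.03 FPKM in any library. The macrophage and osteoclast sums therefore moved with the groups, and their part in the cathepsin results was not tested. In bulk RNA, fewer cells of a type and less RNA per cell cannot be told apart. The members also shared a shift between libraries of a group. All 9 were lower in replicate 2 than in replicate 1 with RANKL + LEA and with RANKL, and all 9 were higher in replicate 2 without RANKL. Of all genes tested, 37.5%, 24.5% and 66.5% were higher in replicate 2 in the RANKL + LEA, RANKL and no RANKL groups.

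The genes lie on 6 chromosomes of the mm10 build, each listed as a single copy. Ctsk (chr3:95499210-95509387) and Ctss (chr3:95526786-95556405) are neighbours on the same strand, with 17398 bases between them, and they went in opposite directions in both the comparison of RANKL with no RANKL and that of RANKL + LEA with RANKL. The 250 bases before their RefSeq starts (GRCm38.p6, plus strand) are printed because these starts stand side by side in the genome and differ in behaviour. Capitals mark GAGGAA on either strand, the ETS core bound by PU.1 (Spi1), a transcription factor of the myeloid lineage that takes part in the control of Ctsk.
Ctsk, chr3:95498960-95499209: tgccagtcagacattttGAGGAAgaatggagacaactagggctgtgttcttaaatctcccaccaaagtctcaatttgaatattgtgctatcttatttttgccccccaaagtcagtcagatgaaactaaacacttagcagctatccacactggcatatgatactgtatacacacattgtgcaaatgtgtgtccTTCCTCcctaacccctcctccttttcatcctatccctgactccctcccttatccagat
Ctss, chr3:95526536-95526785: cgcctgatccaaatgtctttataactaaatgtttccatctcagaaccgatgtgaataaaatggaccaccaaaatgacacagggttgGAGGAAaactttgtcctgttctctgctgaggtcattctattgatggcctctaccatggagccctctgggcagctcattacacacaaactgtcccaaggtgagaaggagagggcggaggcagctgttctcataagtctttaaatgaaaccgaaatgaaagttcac
Ctsk held this core at 2 places, Ctss at 1 and Ctsc, which was lower with RANKL as Ctss was, at 2. It was found in 23.3% of all 32851 promoter windows of this length.

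RefSeq promoter windows were matched for 7 of the 9 genes, 8 windows in all since Ctsa has 2 starts. The E-box CACGTG, which reads the same on both strands and is bound by the TFE family of lysosomal regulators, was present in the windows of Ctsa, Ctsd and Ctsl and in 6.02% of all windows. Stretches of 30 bases around each E-box are printed because these 3 genes share the letters while their mRNAs were not all alike. Ctsa was not called in any comparison, whereas Ctsd and Ctsl were both called lower with RANKL. In Ctsd and Ctsl the RANKL + LEA libraries lay above the RANKL libraries, and only the difference of Ctsl was called. Capitals mark the E-box with a flanking T before it or A after it where present, which makes TCACGTG on either strand, a longer form that contains the E-box and stood in 3.13% of windows.
Ctsa, chr2:164833749-164833778, plus strand: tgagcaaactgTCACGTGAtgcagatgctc
Ctsd, chr7:142387908-142387937, minus strand: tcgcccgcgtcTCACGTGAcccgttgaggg
Ctsd, chr7:142388048-142388077, minus strand: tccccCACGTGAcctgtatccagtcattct
Ctsl, chr13:64370739-64370768, minus strand: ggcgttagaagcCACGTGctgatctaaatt
Counted in bases from the RefSeq start, the CACGTG began at -12 in Ctsa, at -98 and -245 in Ctsd, and at -236 in Ctsl. The Ctsd window (chr7:142387828-142388077) overlaps the deposited Ctsd interval, which ends at 142387870. Exons of the GENCODE annotation, of any gene, covered 211 of the 250 bases in the Ctsd window. They covered 49 bases in the Ctsa window with the E-box and 0 in that of Ctsl. The NFAT core GGAAA (either strand) was in 5 member windows (Ctsa, Ctsc, Ctsd, Ctsl and Ctss) and in 55.6% of all windows, and the Ctsk window had none. The M-box TCATGTG and the AP-1 site TGANTCA, also on either strand, were in 0 member windows and in 3.25% and 6.75% of all windows. These are matches of letters, and none of them was tested for binding in these data.

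To see what RANKL did to each member, RANKL libraries were compared with no RANKL libraries. Of the 9 members 1 was higher (Ctsk, which passed the filter on low values only through the groups with RANKL), 6 were lower and 2 did not pass. Over all genes 17.8% were called higher and 17.8% lower. The median log2 fold change of the members was -1.20, against 0.0005969 for all genes tested. In 6 members the 2 RANKL libraries lay below the 2 no RANKL libraries, as in 37.1% of all genes, and in Ctsk they lay above, as in 37.9%. The count of 7 called members was the same when any library was left out.

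**Figure D1:**
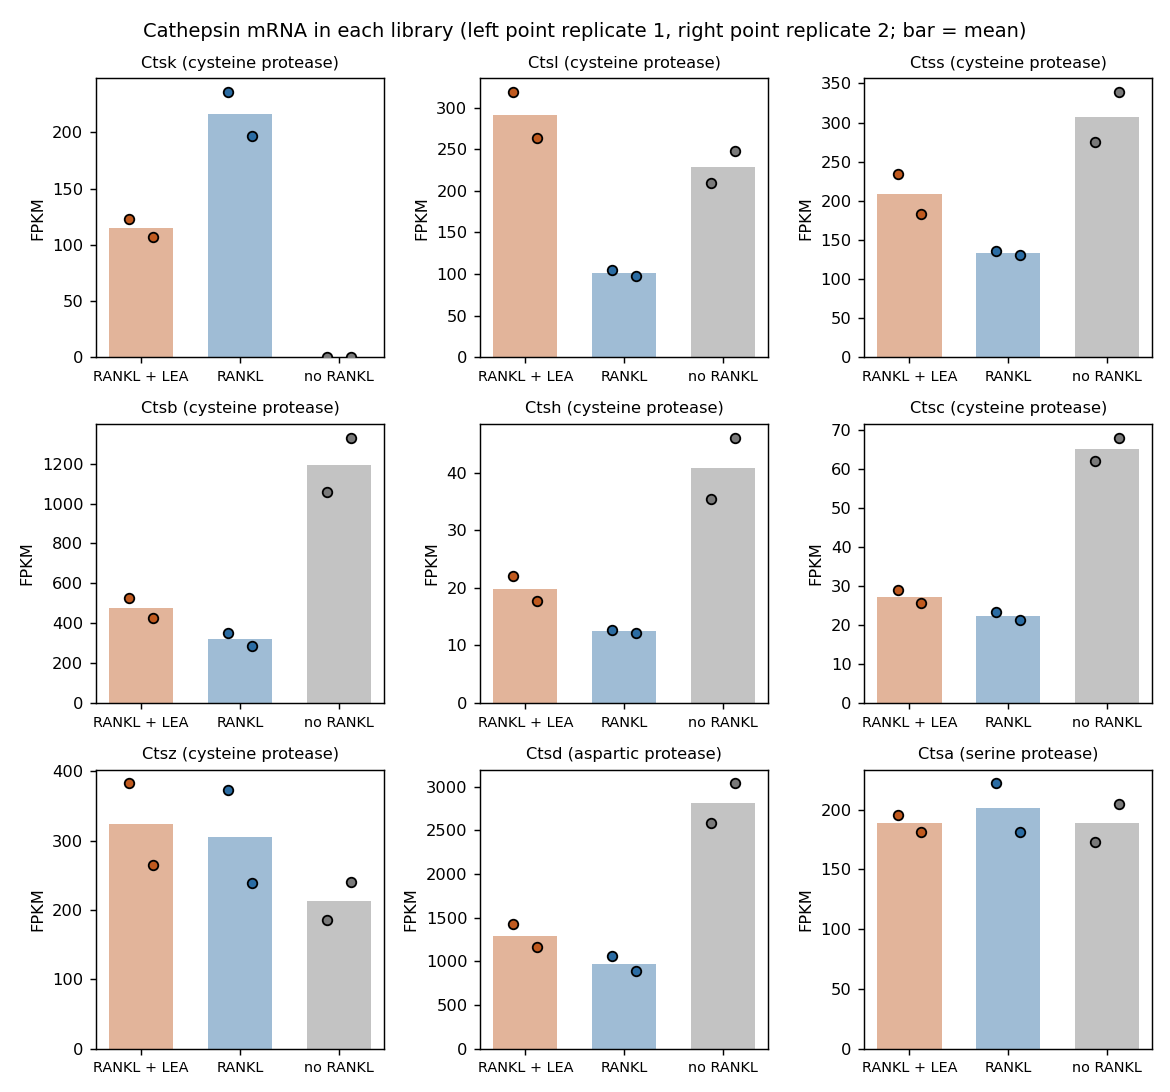
FPKM of each of the 9 cathepsin genes, 1 panel per gene with its own axis from 0, for RANKL + LEA, RANKL and no RANKL cells; points are libraries (left replicate 1, right replicate 2) and bars their mean. Ctsk stands near 0 without RANKL, Ctsl is highest with RANKL + LEA (319 and 264 FPKM), and Ctsb, Ctsc, Ctsd, Ctsh and Ctss are highest without RANKL.

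Ctsk encodes the collagen-degrading cathepsin of the osteoclast. It had 123 and 107 FPKM with RANKL + LEA, 236 and 196 FPKM with RANKL, and 0 and 0.053 FPKM without RANKL. The 3 groups did not overlap, and the no RANKL level amounted to 0 and 4 reads. Ctsk therefore passed the filter on low values only through the groups with RANKL, while the other 8 members passed it in every group. Against these 4 reads the RANKL libraries held 32063 Ctsk reads, a depth-adjusted ratio of 8178 (95% exact interval 3194 to 30018, counting error only). The RANKL + LEA libraries held 17568, a ratio of 4330 (1691 to 15892). Ctsk was called higher with RANKL and with RANKL + LEA, both against no RANKL. Since it entered the test only through the groups where it was high, these calls add no support beyond the reads.

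In RANKL + LEA cells Ctsk fell by 0.91 on the log2 scale relative to RANKL cells (SE 0.20, limma adjusted p = 0.0344), so the level with LEA was 0.53 of that without. The call ended when any library of these groups was left out. The log2 difference was then -1.01 without RANKL + LEA replicate 1 (adjusted p = 0.109), -0.81 without replicate 2 of that group (0.136), -0.78 without RANKL replicate 1 (0.176) and -1.04 without RANKL replicate 2 (0.132). With a pseudocount of 0.01 the log2 difference stayed at -0.91, and with quantile normalization it was -0.87. Neither was called (limma adjusted p = 0.512 and 0.108). The spread in this test is shared by all 6 libraries, including those without RANKL at 0 and 0.053 FPKM. The call stood when either no RANKL library was left out, with a log2 difference of -0.91. It also stood with only the 4 libraries compared.

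Ctsl (chr13:64361890-64370520) encodes cathepsin L, an endopeptidase of broad specificity that degrades lysosomal cargo and invariant chain. It had 319 and 264 FPKM with RANKL + LEA, 105 and 98.2 FPKM with RANKL, and 209.7 and 248 FPKM without RANKL. The 3 groups did not overlap, and every RANKL + LEA library was above every no RANKL library. Ctsl fell by 1.17 on the log2 scale in RANKL cells relative to no RANKL cells (SE 0.13, limma adjusted p = 2.0e-04). In RANKL + LEA cells it was 1.52 higher than in RANKL cells (SE 0.13, 95% interval 1.21 to 1.82, limma adjusted p = 0.00137), which ranked 29 by p among all genes. This call stood in every alternative run, with log2 differences between 1.38 and 1.65 and adjusted p values up to 0.0408. The difference of RANKL + LEA from no RANKL cells was 0.35 (95% interval 0.04 to 0.65, limma adjusted p = 0.0695) and was not called.

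Ctss encodes cathepsin S, which cuts the invariant chain (Cd74) of MHC class II molecules and stays active at neutral pH. It had 234 and 184 FPKM with RANKL + LEA, 136 and 131 FPKM with RANKL, and 276 and 339 FPKM without RANKL. No groups overlapped, and the RANKL + LEA libraries lay between the others. Ctss fell by 1.20 on the log2 scale in RANKL cells relative to no RANKL cells (SE 0.15, limma adjusted p = 3.5e-04) and was 0.64 higher in RANKL + LEA than in RANKL cells (SE 0.15, adjusted p = 0.0407). Without RANKL + LEA replicate 1, RANKL + LEA replicate 2, RANKL replicate 1 or RANKL replicate 2, the LEA difference was 0.46, 0.81, 0.67 or 0.61, with limma adjusted p values of 0.209, 0.0534, 0.145 and 0.211, and it was not called. With median-of-ratios scaling it was 0.58, under the fold limit. Against no RANKL cells, RANKL + LEA cells had a log2 difference of -0.56 (95% interval -0.90 to -0.22, limma adjusted p = 0.0192), just under the 1.5-fold limit. That difference was called with median-of-ratios scaling (-0.61), without RANKL + LEA replicate 1 (-0.74) or without no RANKL replicate 1 (-0.71).

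Ctsb (chr14:63122462-63145923) encodes cathepsin B, an endopeptidase that also trims dipeptides from protein ends. It had 529 and 425 FPKM with RANKL + LEA, 352 and 288 FPKM with RANKL, and 1059.6 and 1331 FPKM without RANKL. The 3 groups did not overlap. The log2 difference of RANKL from no RANKL cells was -1.90 (SE 0.17, limma adjusted p = 5.0e-05), the largest fall among the members. Between RANKL + LEA and RANKL cells it was 0.58 (95% interval 0.19 to 0.96, limma adjusted p = 0.0736), which did not pass. In RANKL + LEA cells Ctsb fell by 1.32 relative to no RANKL cells (SE 0.17, limma adjusted p = 5.4e-04).

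Ctsh (chr9:90054267-90076095) encodes cathepsin H, mainly an aminopeptidase, and had the lowest mean of the 9 over the 6 libraries, although Ctsk was lower in the no RANKL libraries. It had 22.0 and 17.7 FPKM with RANKL + LEA, 12.7 and 12.1 FPKM with RANKL, and 35.5 and 46.1 FPKM without RANKL, with no overlap. Relative to no RANKL cells it fell by 1.69 on the log2 scale in RANKL cells (SE 0.16, limma adjusted p = 7.0e-05) and fell by 1.03 in RANKL + LEA cells (adjusted p = 0.00149). In RANKL + LEA cells it was 0.66 higher than in RANKL cells (SE 0.16, limma adjusted p = 0.0412). Without RANKL + LEA replicate 1, RANKL + LEA replicate 2, RANKL replicate 1 or RANKL replicate 2, this difference was 0.51, 0.82, 0.70 or 0.63, with limma adjusted p values of 0.205, 0.0629, 0.140 and 0.205, and it was not called.

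Ctsc (chr7:88278085-88315861) encodes cathepsin C, a dipeptidyl peptidase that activates the serine proteases of granules. It had 28.9 and 25.6 FPKM with RANKL + LEA, 23.3 and 21.3 FPKM with RANKL, and 62.0 and 68.1 FPKM without RANKL. Relative to no RANKL cells its level fell by 1.54 on the log2 scale in RANKL cells (SE 0.11, limma adjusted p = 2.0e-05) and fell by 1.25 in RANKL + LEA cells (adjusted p = 9.6e-05). The RANKL + LEA libraries lay above the RANKL libraries, with a difference of 0.28 (95% interval 0.02 to 0.55, limma adjusted p = 0.175) that did not pass.

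Ctsd (chr7:142375916-142387870), the aspartic protease that takes part in lysosomal bulk degradation and in cutting prosaposin, was the most abundant member in every library. It had 1425 and 1165 FPKM with RANKL + LEA, 1057 and 891 FPKM with RANKL, and 2579.9 and 3039 FPKM without RANKL. These groups did not overlap either. Among all genes of the table, Ctsd ranked 13 and 15 with RANKL + LEA, 27 and 48 with RANKL, and 8 and 7 without RANKL. Against no RANKL cells Ctsd fell by 1.53 on the log2 scale in RANKL cells (SE 0.15, limma adjusted p = 1.0e-04) and fell by 1.12 in RANKL + LEA cells (adjusted p = 8.1e-04). The difference of 0.41 between RANKL + LEA and RANKL cells (95% interval 0.06 to 0.76, limma adjusted p = 0.147) did not pass.

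Ctsz and Ctsa were the members without a call in the limma fit of log2 FPKM. Ctsz (chr2:174427494-174439039) encodes cathepsin Z, also named cathepsin X, a carboxypeptidase. It had 383 and 264 FPKM with RANKL + LEA, 373 and 238 FPKM with RANKL, and 186 and 241 FPKM without RANKL. By their ratio, its 2 libraries differed more than those of any other member in both groups with RANKL, and the RANKL range overlapped both others. The log2 difference was 0.09 between RANKL + LEA and RANKL cells (95% interval -0.48 to 0.67, limma adjusted p = 0.876) and 0.50 between RANKL and no RANKL cells (-0.08 to 1.07, adjusted p = 0.136). Against no RANKL cells, RANKL + LEA cells differed by 0.59 (0.01 to 1.17, limma adjusted p = 0.0981). With voom on the recovered reads this difference was called (0.61, limma adjusted p = 0.0275).

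Ctsa (chr2:164833773-164841032) encodes the serine carboxypeptidase that protects neuraminidase and β-galactosidase in the lysosome. It had 196 and 181 FPKM with RANKL + LEA, 222 and 181 FPKM with RANKL, and 173 and 205 FPKM without RANKL, and the 3 groups overlapped. The log2 difference was 0.09 between RANKL and no RANKL cells (95% interval -0.22 to 0.41, limma adjusted p = 0.608) and -0.09 between RANKL + LEA and RANKL cells (-0.40 to 0.23, adjusted p = 0.765). Both intervals lie within the 1.5-fold limit on either side. The exons of Ctsa share 495 bases with those of Pltp on the opposite strand, and both strands were counted, so reads there were not told apart. Pltp stood at 180.0 and 191 FPKM with RANKL + LEA, 268 and 238 FPKM with RANKL, and 147 and 143 FPKM without RANKL. The same holds for 774 bases of Ctsb and Fdft1 (9.79 to 40.3 FPKM per library), for 9 bases of Ctsz and Nelfcd, and for 977 bases of Ctsl and the antisense gene Gm47123, whose level was not analysed here. Ctsd shares 670 bases with Gm49369 on its own strand.

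Between RANKL + LEA and RANKL cells the members' log2 differences ranged from -0.91 for Ctsk to 1.52 for Ctsl. Members were not tested against each other. Compared with RANKL cells, 3 members were called higher and 1 lower in RANKL + LEA cells, while 4.54% of all genes were called higher and 1.77% lower. Of all genes called, 71.9% were higher, against 57.2% after quantile normalization and 61.5% with median-of-ratios scaling of the libraries. The members' median log2 difference was 0.41, against 0.05 for all genes. In 6 members the 2 RANKL + LEA libraries lay above the 2 RANKL libraries, a pattern held by 30.1% of all genes, and in Ctsk they lay below, as in 20.6% of all genes. When any of these 4 libraries was left out, Ctsl was the only member still called. Far fewer genes were called over all genes as well in each of these runs, so the loss was not particular to the members. Ctsl was also the only call with no filter on low values or without a trend in the estimate of the spread. Without either no RANKL library the count of 4 calls was the same.

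**Figure D2:**
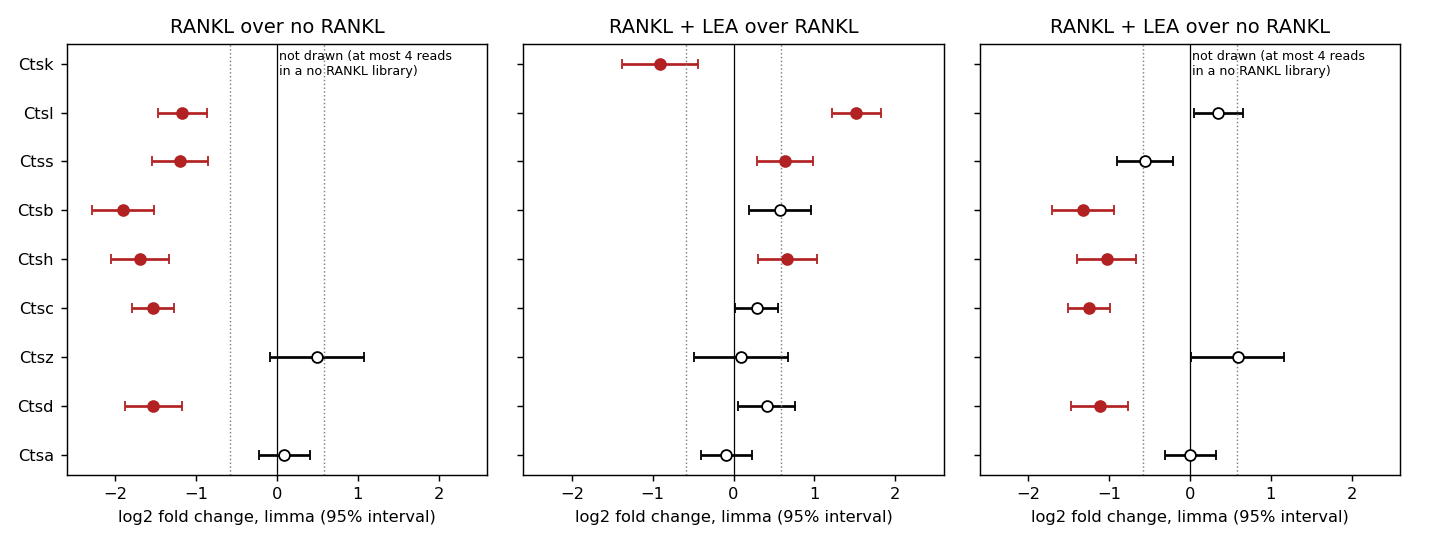
Limma log2 fold change of each member with its 95% interval for RANKL over no RANKL, RANKL + LEA over RANKL, and RANKL + LEA over no RANKL; red filled points were called, open points were not, and dotted lines mark 1.5-fold. In the middle panel Ctsl stands at 1.52 and Ctsk at -0.91, and Ctsk against no RANKL is not drawn because those libraries held at most 4 reads.

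RANKL + LEA cells were also set against no RANKL cells, to see which members LEA left away from the level of cells that received no RANKL. Of the 9 members Ctsk was higher, Ctsb, Ctsc, Ctsd and Ctsh were lower, and 4 did not pass. Ctsk passed the filter on low values only through the groups with RANKL. Over all genes 15.5% were called higher and 11.8% lower. In 5 members the RANKL + LEA libraries lay below the no RANKL libraries (31.1% of all genes) and in 3 above (39.7% of all genes). The median was -0.56 for the members and 0.06 for all genes. Each pair of the 3 comparisons shares a group of libraries, so their values are not independent.

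The make-up of the cathepsin mRNA differed between groups as well. The 9 genes summed to 3260.5 and 2634 FPKM with RANKL + LEA, 2517 and 2057 FPKM with RANKL, and 4581 and 5518 FPKM without RANKL. As a share of the FPKM of all genes this was 0.880% and 0.756% with RANKL + LEA, 0.683% and 0.584% with RANKL, and 1.31% and 1.43% without RANKL. The share was lowest in the RANKL libraries, and the groups did not overlap. Ctsd made up 43.7% and 44.2% of the sum with RANKL + LEA, 42.0% and 43.3% with RANKL, and 56.3% and 55.1% without RANKL. Ctsk made up 3.77% and 4.05% with RANKL + LEA, and 9.38% and 9.55% with RANKL. For Ctsl the order was the other way, with 9.79% and 10.0% in RANKL + LEA cells, 4.16% and 4.77% in RANKL cells, and 4.58% and 4.50% in no RANKL cells. Within the RANKL libraries Ctsk stood above Ctsl, and within the RANKL + LEA libraries Ctsl stood above Ctsk. No test was run on these shares.

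**Figure D3:**
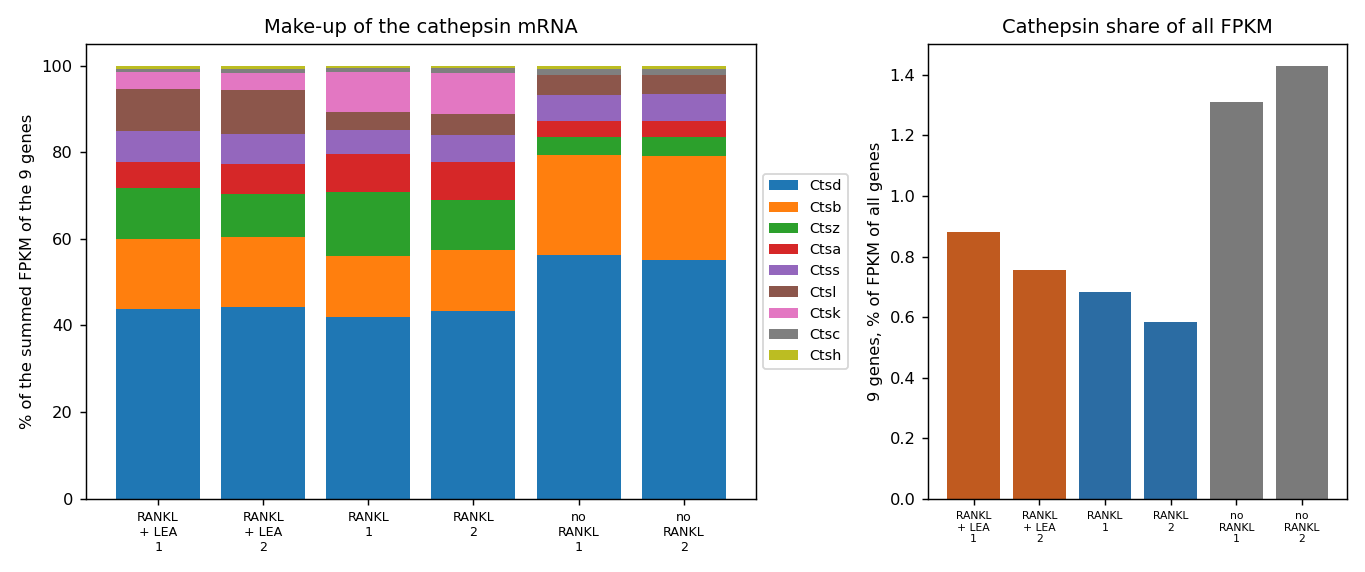
Left, percent of the summed FPKM of the 9 genes taken by each gene in each library; right, the sum of the 9 as percent of the FPKM of all genes (RANKL + LEA, RANKL and no RANKL, replicates 1 and 2). The Ctsk band is 9.38% and 9.55% with RANKL and 3.77% and 4.05% with RANKL + LEA, and the total share is lowest in the RANKL libraries (0.683% and 0.584%).

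The genes around the cathepsin pathway were read from lists by role. For comparison, 17.8% of all genes tested were called higher and 17.8% lower with RANKL against no RANKL. With RANKL + LEA against RANKL these shares were 4.54% and 1.77%. Of 14 other cathepsin genes only Ctse, Ctso and Ctsf passed the filter, and Ctsm, Ctsj, Ctsq, Ctsr, Cts3, Cts6 and Cts7 were at 0 in all libraries. Ctse, an aspartic cathepsin of endosomes, had 3.73 and 3.40 FPKM with RANKL + LEA, 2.30 and 1.83 FPKM with RANKL, and 6.08 and 7.89 FPKM without RANKL. Ctse fell by 1.71 on the log2 scale in RANKL cells relative to no RANKL cells (limma adjusted p = 1.2e-04) and was 0.77 higher in RANKL + LEA than in RANKL cells (adjusted p = 0.0375). Without any 1 of the RANKL + LEA or RANKL libraries the Ctse difference lay between 0.61 and 0.92, with limma adjusted p values of 0.0808 to 0.196, and was not called. Ctso fell by 0.92 in RANKL cells relative to no RANKL cells (limma adjusted p = 0.0020). Of the 3 tested, 0 were higher and 2 lower with RANKL, and 1 was higher with LEA.

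Among 18 inhibitor genes 16 were in the table, Stfa1 and BC100530 were at 0 in all libraries, and 7 were tested. RANKL cells had 3 higher and 3 lower than no RANKL cells, with a median of 0.32. Cst7 and Serpina3g, which averaged 0.554 and 0.503 FPKM, passed the filter only through the groups with RANKL, where they were high. Without them 1 was higher and 3 were lower, with a median of -0.93. Cstb, the cytosolic stefin B that blocks escaped cathepsins, was 0.89 higher on the log2 scale in RANKL cells (limma adjusted p = 0.0022). It had 414 and 371 FPKM with RANKL + LEA, 427 and 369.9 FPKM with RANKL, and 184 and 249.8 FPKM without RANKL. Cystatin C (Cst3), the secreted inhibitor and the most abundant of the list, did not pass in any comparison.

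Ctla2a and Ctla2b, which resemble the propeptide of cathepsin L and inhibit it, fell furthest in this list. Ctla2b had 6.53 and 4.69 FPKM with RANKL + LEA, 2.62 and 1.75 FPKM with RANKL, and 50.9 and 63.8 FPKM without RANKL. Its log2 difference was -4.67 between RANKL and no RANKL cells (SE 0.23, limma adjusted p = 2.2e-06) and 1.33 between RANKL + LEA and RANKL cells (SE 0.23, adjusted p = 0.0155). Leaving out RANKL + LEA replicate 1, RANKL replicate 1 or RANKL replicate 2 ended the call of the LEA difference (1.09, 1.61 and 1.05, with limma adjusted p values of 0.0872, 0.0512 and 0.110). Ctla2a had 0.661 and 0.926 FPKM with RANKL + LEA, 0.568 and 0.520 FPKM with RANKL, and 11.3 and 12.7 FPKM without RANKL, and fell by 4.23 on the log2 scale in RANKL cells relative to no RANKL cells (limma adjusted p = 1.6e-06). As near copies in sequence, Ctla2a and Ctla2b can share reads, so their separate levels are uncertain. Serpinb6a, an intracellular serpin, fell by 0.93 in RANKL cells relative to no RANKL cells. Of the 7 tested, Ctla2b alone was called with LEA against RANKL.

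The 11 sorting and activation genes were called in both directions. RANKL cells had 4 higher (Igf2r, Gnptab, Gga2 and M6pr) and 3 lower (Sort1, Lgmn and Scarb2) than no RANKL cells, with a median of 0.05. Igf2r, the large mannose 6-phosphate receptor, had 42.5 and 50.7 FPKM with RANKL + LEA, 52.5 and 51.0 FPKM with RANKL, and 1.11 and 1.21 FPKM without RANKL. It was 5.36 higher on the log2 scale in RANKL than in no RANKL cells (SE 0.12, limma adjusted p = 5.9e-08) and differed by -0.16 between RANKL + LEA and RANKL cells (adjusted p = 0.506).

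Gnptab, which encodes the enzyme that starts the mannose 6-phosphate tag, had 53.9 and 54.5 FPKM with RANKL + LEA, 80.5 and 76.2 FPKM with RANKL, and 17.3 and 16.3 FPKM without RANKL. It was 2.22 higher in RANKL than in no RANKL cells, and the difference of -0.53 between RANKL + LEA and RANKL cells (limma adjusted p = 0.0186) was under the fold limit. M6pr, the small receptor, and Gga2, an adaptor that loads receptor cargo at the Golgi, were 0.83 and 1.05 higher in RANKL cells. Sort1, a receptor that carries cargo without the tag, fell by 2.42 on the log2 scale.

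Lgmn, the asparaginyl endopeptidase that cleaves cathepsins B, H and L into 2 chains, had 118 and 95.1 FPKM with RANKL + LEA, 77.7 and 62.0 FPKM with RANKL, and 188 and 262 FPKM without RANKL. Lgmn fell by 1.68 in RANKL cells relative to no RANKL cells (limma adjusted p = 2.0e-04), while its LEA difference of 0.61 did not pass (adjusted p = 0.0911). Scarb2, the receptor that carries β-glucocerebrosidase, was the call with LEA in this list. It was 0.62 higher than in RANKL cells (limma adjusted p = 0.0389), and this ended when any of the 6 libraries was left out, with differences of 0.47 to 0.78 and adjusted p values of 0.0540 to 0.201.

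**Figure D4:**
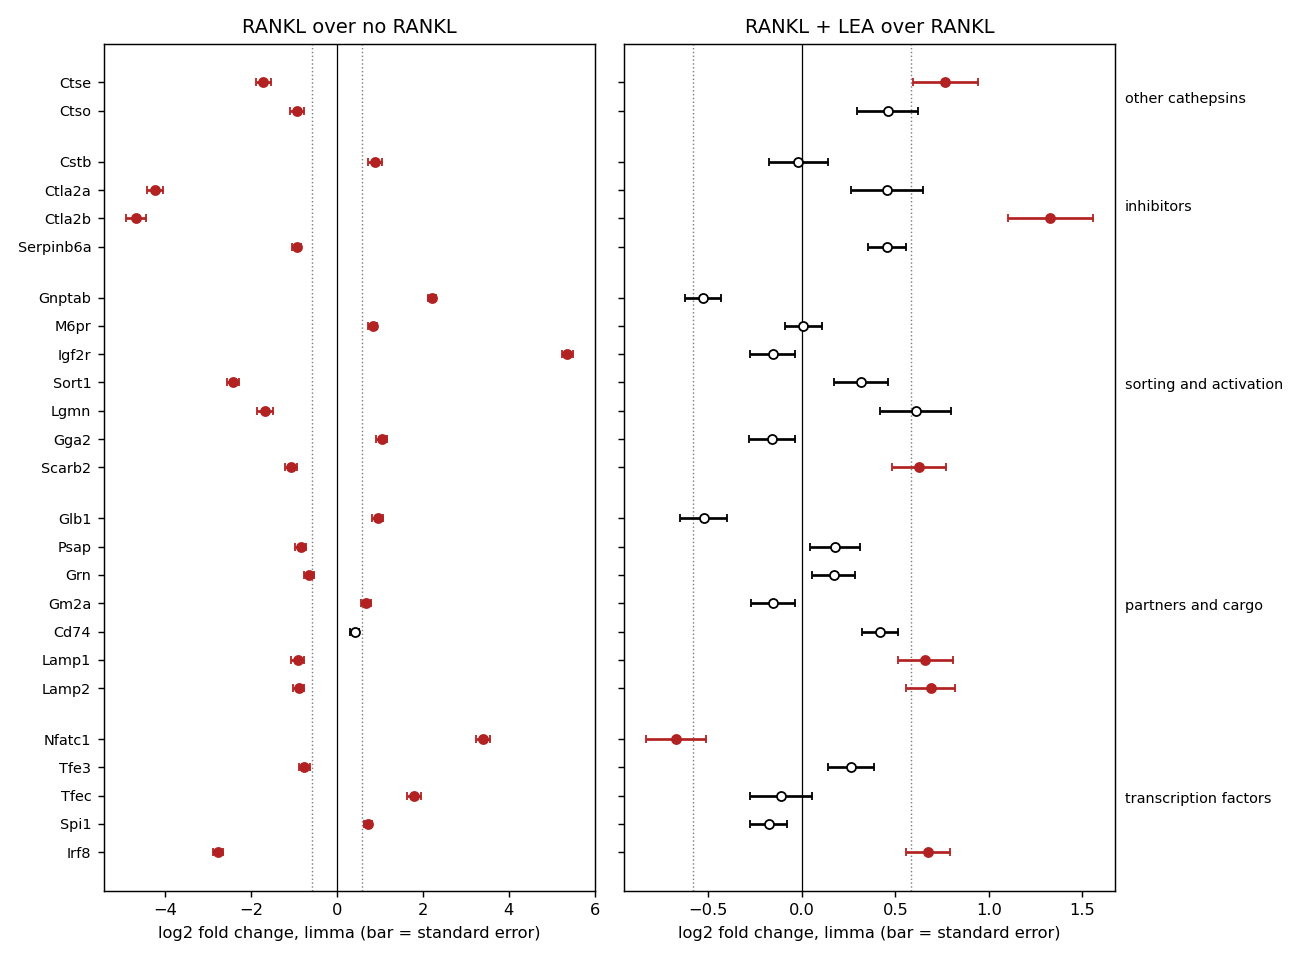
Limma log2 fold change (bar, standard error) of list genes called in at least 1 comparison and averaging 2 FPKM or more, grouped by role, for RANKL over no RANKL (left) and RANKL + LEA over RANKL (right, narrower axis); red filled points were called and dotted lines mark 1.5-fold. Igf2r at 5.36 and Ctla2b at -4.67 are the extremes on the left, and Ctla2b at 1.33 is the highest on the right.

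Among 12 partners and cargo genes, RANKL cells had 2 higher (Glb1 and Gm2a) and 4 lower (Psap, Grn, Lamp1 and Lamp2) than no RANKL cells, with a median of -0.04. Glb1, the β-galactosidase that cathepsin A protects, was 0.95 higher on the log2 scale, whereas Psap and Grn, precursors that lysosomal cathepsins cut, had differences of -0.84 and -0.65. The call of Gm2a, the GM2 activator (0.67 higher), ended without RANKL replicate 1 (0.57) or no RANKL replicate 1 (0.56), and that of Grn ended without RANKL replicate 2 (-0.56). Cd74, the invariant chain, was 0.83 higher in RANKL + LEA than in no RANKL cells (limma adjusted p = 3.9e-04).

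The lysosomal membrane proteins Lamp1 and Lamp2 were the list's calls with LEA. Lamp1 had 381.5 and 314 FPKM with RANKL + LEA, 237 and 203 FPKM with RANKL, and 373 and 455 FPKM without RANKL. Its RANKL + LEA and no RANKL ranges overlapped, and the RANKL libraries were below both. The LEA difference was 0.66 for Lamp1 (limma adjusted p = 0.0351) and 0.69 for Lamp2 (adjusted p = 0.0213). For Lamp1 it ended without any 1 of the 4 libraries compared (0.52 to 0.80, limma adjusted p values of 0.0672 to 0.216). For Lamp2 it ended without RANKL + LEA replicate 1, RANKL replicate 1 or RANKL replicate 2 (0.57, 0.79 and 0.58, limma adjusted p values of 0.124, 0.0681 and 0.138).

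Of 8 transcription factors known to act on cathepsin genes, RANKL cells had 4 higher (Nfatc1, Tfec, Spi1 and Ciita) and 2 lower (Tfe3 and Irf8) than no RANKL cells, with a median of 0.53. Ciita passed the filter only through the groups with RANKL, and without it 3 were higher and 2 lower, with a median of 0.34. Nfatc1, the osteoclast factor that drives Ctsk, had 41.6 and 55.3 FPKM with RANKL + LEA, 75.1 and 78.1 FPKM with RANKL, and 7.94 and 6.44 FPKM without RANKL. Its LEA difference was -0.67 (SE 0.16, limma adjusted p = 0.0412). It was not called without RANKL + LEA replicate 1, RANKL replicate 1 or RANKL replicate 2 (-0.47, -0.70 and -0.64, limma adjusted p values of 0.195, 0.144 and 0.205).

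Irf8, a macrophage factor, had 10.7 and 10.9 FPKM with RANKL + LEA, 7.36 and 6.14 FPKM with RANKL, and 45.6 and 46.9 FPKM without RANKL. Irf8 fell by 2.76 in RANKL cells relative to no RANKL cells (limma adjusted p = 1.2e-06) and was 0.67 higher in RANKL + LEA than in RANKL cells (adjusted p = 0.0168). The LEA call ended without RANKL + LEA replicate 1, RANKL + LEA replicate 2 or RANKL replicate 2 (0.69, 0.66 and 0.54, limma adjusted p values of 0.0837, 0.0783 and 0.0944). The E-box binders did not move together. In RANKL against no RANKL cells the log2 difference of Tfec was 1.79 and that of Tfe3 -0.75, and Mitf and Tfeb did not pass in any comparison. Set against no RANKL cells, RANKL + LEA cells had 0 higher and 1 lower of the 3 other cathepsins tested. The counts were 3 and 2 of 7 inhibitors and 4 and 2 of 11 sorting and activation genes. Among partners and cargo 1 and 1 of 12 were called, and among transcription factors 3 and 1 of 8. Without Cst7, Serpina3g and Ciita the counts were 1 and 2 of 5 inhibitors and 2 and 1 of 7 transcription factors. Over all genes tested, 15.5% were called higher and 11.8% lower.

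For each member the genes with the most similar pattern were ranked by the root mean square difference of centred log2 values over the 6 libraries, among the 7491 genes whose mean reached 5 FPKM. The nearest to Ctsl were Osgin1 (0.155), Cd300c2 (0.176) and Havcr2 (0.199), and Osgin1, an oxidative stress-induced gene, stood 1.28 higher in RANKL + LEA than in RANKL cells as a log2 difference. Those nearest to Ctsk, Mt3 (0.736), Car2 (0.746) and Cd200 (1.16), were far less close by this measure. Its values are in log2 units and are not scaled to the size of a gene's changes. Ctsk stood near 0 without RANKL. The log2 difference of RANKL from no RANKL was 10.8 for Ctsk, 9.1 for Mt3, 9.5 for Car2 and 8.4 for Cd200. Car2, the carbonic anhydrase that supplies protons for resorption, had a log2 difference of -1.41 between RANKL + LEA and RANKL cells. The other members had neighbours within 0.0825. Those of Ctsc were Ppt1 (0.0338), a lysosomal thioesterase, Rpa2 and Aldh2, and those of Ctsh were Lmo2 (0.0566), H2-M3 and Lgmn. Those of Ctss were Tlr1 (0.0533), Tbc1d31 and Plaur. Those of Ctsb were Pea15a (0.0596), Metrnl and Tpd52, and those of Ctsd were Dse (0.0544), Klf2 and Cdkn1a. Those of the uncalled members were Srsf5 (0.0517), Gpbp1l1 and Clk4 for Ctsz, and Timm10b (0.0263), Rassf3 and Sf3b5 for Ctsa.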

How the data were processed

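The authors mapped paired reads of 6 libraries to mm10 with HISAT2 and counted them with HOMER on exons, from both strands, keeping 1 transcript per gene, and deposited FPKM values scaled to the mapped reads of each library. No source used here gives the tool versions, and labels and methods differ on the kits (TRIzol and a standard Illumina protocol, or RNeasy and the SMARTer Stranded kit). The deposited table also holds the authors' lists of genes at 1.5-fold and 2-fold, which were not used. The authors ran DESeq2 on counts; since FPKM are not counts, log2(FPKM + 0.1) of the 11905 genes that reached 0.5 FPKM in 2 libraries was fitted with limma 3.58.1 (R 4.3.3, eBayes with trend) over all 6 libraries, with 3 residual degrees of freedom, and adjusted by Benjamini-Hochberg. Fold changes on this scale understate those of low genes. Low FPKM values were whole multiples of 1 read (100.0% within 0.1 read), which gave the depth. With 2 libraries per group a permutation test cannot pass, so none was run.

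The text names every member, list genes called in at least 1 comparison with a mean of at least 2 FPKM, list genes at 0 throughout, the 3 nearest genes of each member, and markers averaging 1 FPKM or more. Other genes, such as Ctsf, Cst3, Cst7, Serpina3g, Ciita, Mitf, Tfeb, Pltp and Fdft1, are named outside this rule after their values were seen. Members and lists were chosen with earlier results of these data known. Alternatives covered pseudocount, filter, scaling, replicate block, libraries, spread, fold limit, voom on recovered reads and each library left out. Promoters came from RefSeq (GRCm38.p6) and exon overlaps from GENCODE M21. Tables were made with pandas 2.3.3 and numpy 2.4.6 in Python 3.11.15, exact intervals with scipy 1.17.1 and figures with matplotlib 3.10.9.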

Additional observations from a re-analysis of the deposited data

How the results depend on the processing

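Single genes were followed for the members in every comparison and for named list genes only where called, so that list genes could lose a call but not gain one. The direction and side of the threshold were kept in 1086 of these values, 70 lost a call, 4 gained one (Ctss and Ctsz) and 8 reversed, all 8 in the uncalled Ctsa and Ctsz. With a library left out, Ctsa ranged from -0.056 to 0.24 for RANKL against no RANKL, from -0.24 to 0.059 for RANKL + LEA against RANKL and from -0.12 to 0.13 for RANKL + LEA against no RANKL, where median-of-ratios scaling gave -0.049, and Ctsz ranged from -0.23 to 0.42 for RANKL + LEA against RANKL. For RANKL against no RANKL 7 members were called under every setting run. For RANKL + LEA against RANKL the 4 calls became 3 with a pseudocount of 0.01, quantile normalization or median-of-ratios scaling, and 1 with no filter, with eBayes without trend and at a fold limit of 2, and ranged from 1 to 4 with a library left out. The alternatives on the lists were chosen after seeing the data. For RANKL + LEA against RANKL the other cathepsins (1 call) had 0 with a pseudocount of 1, no filter, no trend or a fold limit of 2. The inhibitors (1) had 0 with no filter and 2 with no fold limit. The sorting genes (1) had 0 with no filter, only the 4 libraries compared, no trend or a fold limit of 2, and 2 with voom or no fold limit. The partners (2) had 0 with no filter or a fold limit of 2, 1 with no trend and 4 with no fold limit. The transcription factors (2) had 0 with no filter or a fold limit of 2, and 1 with quantile normalization or no trend. With a library left out these lists had 0 to 1, 0 to 1, 0 to 0, 0 to 2 and 0 to 2 calls. At a fold limit of 2 the other cathepsins had 1 and the partners 0 for RANKL against no RANKL, and both had 0 for RANKL + LEA against no RANKL, where the partners had 8 with no fold limit and the inhibitors 3 (of 5) at a filter of 1 FPKM. Without the 10 genes of highest mean, which include Ctsd, the cathepsin share was 0.524% with RANKL + LEA, 0.406% with RANKL and 0.730% without RANKL, by construction. Over all genes, 751 were called for RANKL + LEA against RANKL, against 291 with no filter, 248 at a fold limit of 2 and 141 to 669 with a library left out, and 71.9% of them were higher, against 57.2% with quantile normalization and 61.5% with median-of-ratios scaling. Where no cause is given, the cause was not tested.

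Deviations of the replicates numbered 1 correlated at 0.12 between RANKL + LEA and RANKL. The correlation was -0.25 between RANKL + LEA and no RANKL and -0.08 between RANKL and no RANKL. No strong shift was therefore shared by replicate number, but these values cannot tell whether the libraries were paired by animal or culture. With the replicate block, RANKL + LEA against RANKL had 2 members called, Ctsl and Ctsk, while Ctss and Ctsh (limma adjusted p = 0.0561 and 0.0591) were lost, and 0 other cathepsins and 1 transcription factor.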
